A study of Mus musculus with 2 samples.

Results

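Cluster 0 (C0) was the largest of the 20 transcript clusters that the study drew from sorted mouse splenic dendritic cells (DCs), and the study named it cDC2a, a subset of type 2 conventional DCs (cDC2). Its members were the cells that the deposited cell annotation assigned to cluster 0 at a clustering resolution of 0.5, which gave 6137 of 24343 cells: 3176 of 12224 cells from wild-type (WT) mice and 2961 of 12119 cells from Batf3-/- mice. The cells came from the spleens of female C57BL/6 mice and of female Batf3-/- mice on the same strain deficient in the transcription factor Batf3, all 8 weeks old. The WT mice came from the Animal Resources Centre. The Batf3-/- mice came from Jackson Laboratories and were bred by the authors, so genotype and source of the mice went together. Spleen cells of 6 mice were pooled per genotype, depleted of T and B cells with antibodies, sorted as MHCII+CD11c+ cells and stained with 11 oligonucleotide-tagged antibodies, so that each droplet gave counts of transcripts and of antibody tags from the same cell (CITE-seq). Each genotype was 1 library from 1 experiment. There was no replicate of either genotype, no test between genotypes was possible, and every interval below is a 95% interval that covers counting error only.

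cDC2 take up antigen and present it to CD4+ T cells. In the spleen many of them depend on Notch2 signalling, sit near the marginal zone and carry the adhesion molecule ESAM and often CD4 itself, and these features are used to describe the cDC2a subset. The cDC2b subset has more transcripts shared with monocytes, such as those of Ccr2, Cd14 and Lyz2. Batf3 is required for cDC1, the CD8A-bearing cross-presenting subset, while cDC2 are still formed in its absence.

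C0 held 21815080 transcript molecules (UMIs) in WT and 21877893 in Batf3-/- cells, and levels are given as UMIs summed over all C0 cells of a library, scaled to 1000000 UMIs of those cells (CPM). The median C0 cell had 6648 UMIs in WT and 7187 in Batf3-/-. Mitochondrial transcripts took 4.82% and 4.50% of the UMIs and ribosomal protein transcripts took 24.4% and 25.8%. The 2 libraries shared 56 cell barcodes, of which 4 marked a C0 cell in both. In the Batf3-/- library 8 C0 cells had over 5000 tag counts, against 0 in WT, where the median C0 cell had 508 tag counts and the Batf3-/- median was 465.

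The deposited reference-based label was DC for 3173 of the WT and 2956 of the Batf3-/- C0 cells, and monocyte for the other 3 and 5. By the deposited cell cycle phase, 90.6% of WT (89.6% to 91.6%) and 92.3% of Batf3-/- C0 cells (91.3% to 93.2%) were in G1. It took 32.4% of all G1 cells in WT and 31.1% in Batf3-/-, against 26.0% (25.2% to 26.8%) and 24.4% (23.7% to 25.2%) of all cells. These shares depend on the other clusters, since the cDC1 clusters held far fewer cells in the Batf3-/- library. Without the cDC1 clusters C0 took 36.7% of the WT and 26.1% of the Batf3-/- cells.

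The markers that define the label were all present. Dtx1, a ubiquitin ligase of the Notch pathway, stood at 261 CPM in WT and 199 CPM in Batf3-/- C0 cells. Among the clusters with at least 50 cells that was second of 19 in WT, after 264 CPM in C10, and first of 15 in Batf3-/-, ahead of C10 at 167 CPM. Cd7, a surface glycoprotein also found on T and NK cells, was at 400.0 and 367 CPM, rank 5 in both libraries. Sirpa, the inhibitory receptor that separates cDC2 from cDC1, was at 207 and 247 CPM, rank 6 in both. Dtx1 therefore set C0 apart from most clusters, whereas Sirpa was as high or higher in several others. C0 was clustered on these same transcripts, so these levels describe the cluster and test nothing.

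At equal depth the markers were seen in a minority of the cells. After each cell was thinned to 1000 UMIs, Dtx1 was seen in 21.9% of WT (20.5% to 23.4%) and 17.3% of Batf3-/- C0 cells (16.0% to 18.7%). In C14, the plasmacytoid DCs, the thinned shares were 0% (up to 2.37%) and 0.99%, from 154 and 101 cells. Without thinning, 68.7% and 60.5% of C0 cells had a Dtx1 UMI, and 80.6% and 77.0% had one of Cd7. Single cells without a Dtx1 UMI were thus common in C0 at this depth, and they cannot be read as cells without the transcript.

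**Figure D1:**
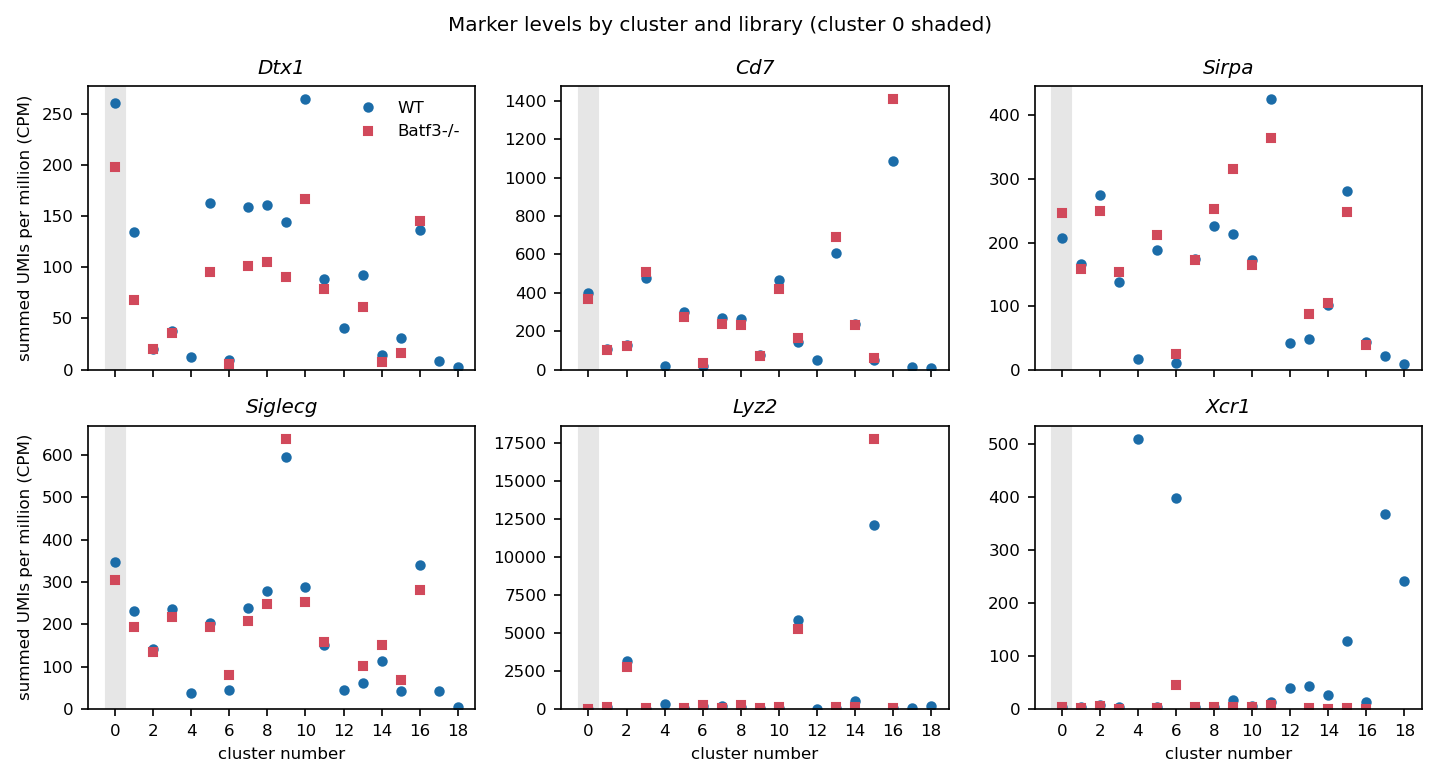
Levels of 6 transcripts (CPM, linear axis from 0) in each cluster with at least 50 cells, blue circles for WT and red squares for Batf3-/-, with C0 shaded. Dtx1 is near its maximum in C0 (261 and 199 CPM), Lyz2 is lowest in C0 (19.0 and 16.8 CPM) and Xcr1 is near 0 there.

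Most lists of markers of other cell types had low sums in C0. The largest was that of plasmacytoid DCs, whose 7 markers summed to 190.0 CPM in WT and 183 CPM in Batf3-/-, against 9899 and 10040 CPM in C14. Of this, Tcf4, a transcription factor, gave 95.6 and 88.1 CPM and Bst2, an interferon-inducible membrane protein, 88.0 and 84.7 CPM, while Siglech was at 2.15 and 1.65 CPM. The share of C0 cells with 3 or more of these markers was 1.20% and 1.25%. The 5 NK cell markers summed to 0.688 CPM in WT and 0.686 CPM in Batf3-/-, against 3064 and 2901 CPM in C13, with Ncr1 at 0 UMIs in both libraries. For the 3 T cell markers in the files (Cd3e, Cd3d and Cd3g) the sums were 1.60 and 1.92 CPM, against 921 and 589 CPM in C13. The 6 monocyte markers summed to 35.7 and 48.9 CPM, against 13066 and 19524 CPM in the monocyte cluster C15, with Fcgr1 at 0 in WT and Vcan at 0 in Batf3-/-. The 4 B cell markers summed to 49.7 and 67.8 CPM, of which Cd79b and Ms4a1 gave nearly all. The 5 cDC1 markers summed to 58.7 and 33.6 CPM, against 2299 CPM in the WT cDC1 cluster C4. The red pulp macrophage list reached 110 and 136 CPM, but 95.8 and 117 CPM of it was Adgre1 (F4/80), which cDC2 also carry, and C1qa was at 0.917 and 0.457 CPM.

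Of the 16 cDC2a and Notch-linked genes, most were well detected in C0 and nearly level between the genotypes. Siglecg, an inhibitory sialic acid receptor, was at 347 CPM in WT and 305 CPM in Batf3-/-, second among the clusters in both libraries. Clec4a4, the C-type lectin recognised by the DCIR2 antibody that marks this subset, stood at 46.8 and 51.8 CPM, also second in both. Esam was at 43.5 and 42.8 CPM, and Cd4 at 81.2 and 75.01 CPM. The chemokine receptor Ccr6 was at 44.7 and 60.6 CPM, rank 3 in both libraries. The Notch components were present at moderate levels, with Notch2 at 47.0 and 46.4 CPM and its nuclear partner Rbpj at 62.6 and 63.3 CPM. Among Notch target genes, Hes1 stood at 144 and 122 CPM and Nrarp at 0.321 and 0.137 CPM, from 7 and 3 UMIs. Tbx21, the transcription factor T-bet that has been used to name cDC2a, was at 12.3 and 11.2 CPM.

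C0 was most like C5 and then C2 in both libraries. Across 2718 genes the Pearson correlation of log levels with C0 was 0.948 for C5 in WT and 0.9496 in Batf3-/-, and 0.933 and 0.948 for C2. For C3 it was 0.931 and 0.936, for C11 0.901 and 0.937, and for C8 0.921 and 0.916. These are correlations across genes, which share depth and the highly expressed genes and are not replicates. C5, C8 and C2 were set beside C0 gene by gene because the study described them as proliferating cDC2a, mature cDC2a and cDC2b, and not for their place in this order. A gene was counted where it was at least 2-fold apart in the same direction in both libraries, among genes of at least 50 CPM in C0 or the other cluster.

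Against C2, which had 942 WT and 1520 Batf3-/- cells, 80 of 2813 genes were higher in C0 (2.84%) and 74 were lower (2.63%). Of the 11 cDC2a and Notch-linked genes compared, 6 were among the higher ones and 0 among the lower, with a median log2 ratio of 1.23 against 0.15 over all genes compared. Dtx1 was 13.3-fold higher in WT C0 cells (11.4 to 15.6) and 9.95-fold higher in Batf3-/- C0 cells (8.86 to 11.2). Ccr6 was 8.06-fold (6.00 to 11.1) and 6.98-fold higher (5.84 to 8.41). Adam23, a cell adhesion protein, was 3.85-fold and 3.35-fold higher, Cd7 3.16-fold and 3.05-fold, and Siglecg 2.44-fold and 2.27-fold. Mdh2, the mitochondrial malate dehydrogenase, was 2.95-fold and 3.01-fold higher, at 1504 and 1594 CPM in C0. Esam was 5.55-fold and 5.25-fold higher in C0 but lay under the 50 CPM limit. Sirpa did not separate them, at 276 CPM in WT and 249 CPM in Batf3-/- C2 cells, and neither did Notch2, at 42.8 and 43.3 CPM.

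Outside that list, the genes furthest above C2 were of mixed function. Ifitm1, an interferon-inducible membrane protein, was at 176 and 317 CPM in C0 against 20.8 and 26.6 CPM in C2. Scn3a, a sodium channel subunit, was at 59.1 and 55.5 CPM against 7.48 and 5.74 CPM, and the intracellular calcium channel Ryr3 at 45.3 and 56.5 CPM against 6.76 and 7.57 CPM. Ppp1r14a, an inhibitor of myosin phosphatase, was at 373 and 293 CPM against 57.0 and 50.7 CPM. Gpm6b, Actn1, Sept1, Arhgap6, Dscam and Lysmd2 made up the rest of the 12 largest, with log2 ratios of 2.12 to 2.89.

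Most monocyte-linked genes were far lower in C0. Of 13 cDC2b and monocyte-linked genes compared with C2, 10 were lower in C0 and 0 higher, against 2.63% and 2.84% of all genes compared. Their median log2 ratio was -2.93, against 0.15 over all genes compared. Lyz2, the lysozyme of myeloid cells, was at 19.0 and 16.8 CPM in C0 and at 3149 and 2747 CPM in C2, which is 166-fold (151 to 183) and 163-fold (147 to 181) lower in C0. That was the lowest Lyz2 level of the 19 WT and of the 15 Batf3-/- clusters. Ccr2, the receptor for monocyte chemoattractants, was at 1.70 and 2.51 CPM against 189 and 140.1 CPM. The lectins Mgl2 and Clec10a had 4 and 7 UMIs in WT and 3 and 4 in Batf3-/- among all C0 cells, against 508 and 683 UMIs and 1151 and 1178 UMIs in the far fewer C2 cells. The genes that did not follow were S100a4, Ms4a4c and Klf4, each less than 2-fold apart. Ccl9, Cx3cr1, Adgre4, Ltb4r1, Mcub, Ahnak, Wfdc17 and Olfm1 completed the 12 genes furthest below C2, with log2 ratios of -6.68 to -3.64.

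**Figure D2:**
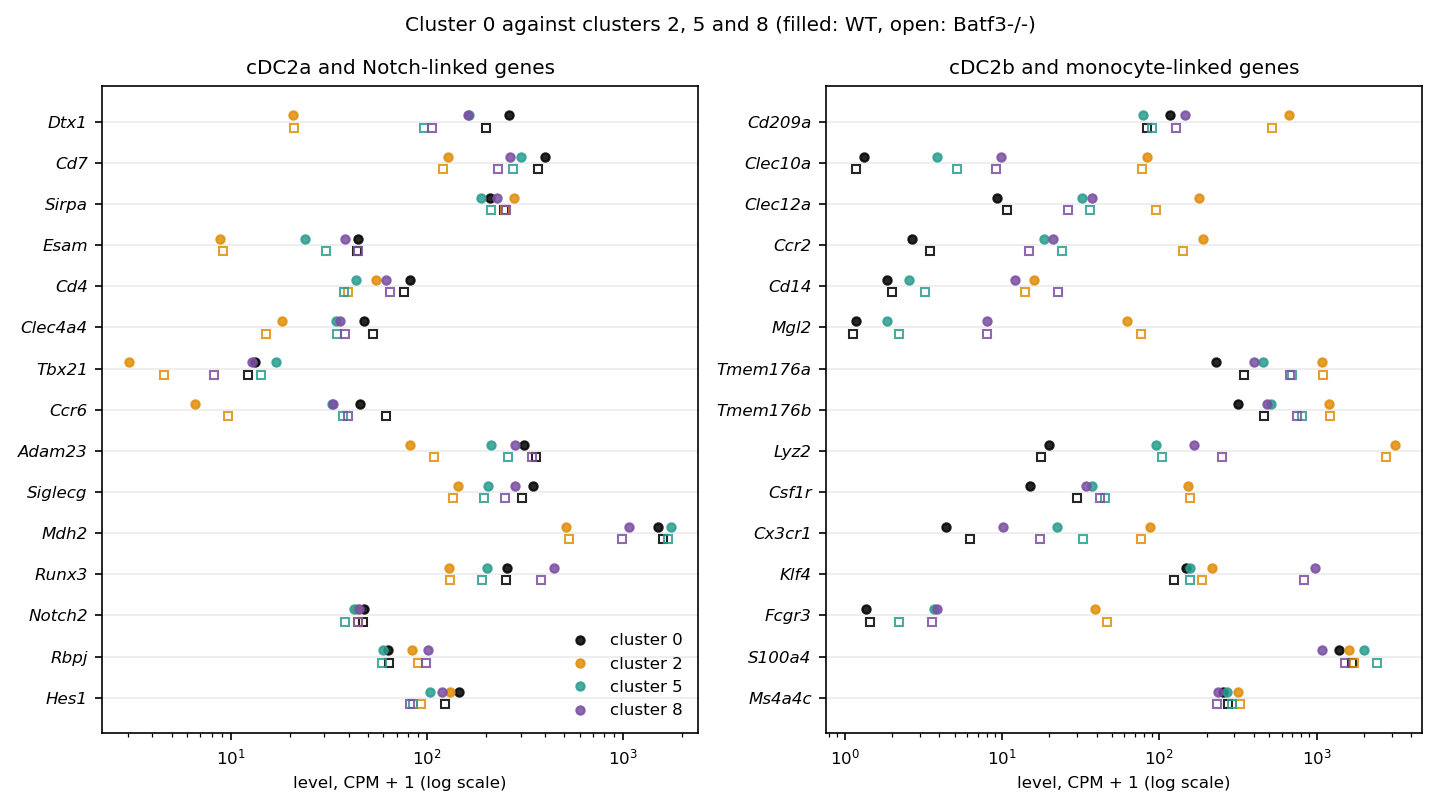
Levels (CPM + 1, log axis) of the cDC2a and Notch-linked genes with clear counts (left) and of the cDC2b and monocyte-linked genes (right) in C0 and in C2, C5 and C8, with filled circles for WT and open squares for Batf3-/-. C0 (black) lies right of C2 (orange) for Dtx1, Cd7, Esam and Ccr6, and far left of it for Lyz2 (19.0 against 3149 CPM in WT), Ccr2, Mgl2 and Clec10a.

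The MHC class II transcripts had a lower sum in C0 than in C2. The 10 MHC class II genes summed to 47360 CPM in C0 and 68253 CPM in C2 as means of both libraries. Of the 10, 1 was at least 2-fold lower, against 2.63% of all genes compared. It was H2-DMb1, at 241 and 229 CPM against 613 and 568 CPM. Some ran the other way by less than 2-fold. H2-Ob, a part of the H2-O peptide exchange inhibitor, was at 239 and 200 CPM in C0 against 137 and 111 CPM in C2, and H2-DMb2 at 437 and 397 CPM against 261 and 239 CPM. Among the transcription factors, Zeb2 was lower in C0, at 132 and 145 CPM against 360 and 355 CPM. Id2, an inhibitor of E proteins, was higher, at 387 and 347 CPM against 127 and 215 CPM, but by less than 2-fold in Batf3-/-.

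Cell cycle genes led the contrast with C5. Of 2971 genes, 19 were higher in C0 (0.64%) and 119 lower (4.01%), and of the 7 cell cycle genes compared all 7 were lower in C0. Stmn1 was at 18.9 and 22.8 CPM in C0 against 378 and 357 CPM in C5, and the replication helicase subunit Mcm5 at 9.86 and 10.9 CPM against 188 and 182 CPM. Among the 12 genes furthest below C5 were Cdca7, Pclaf, Uhrf1, Ung, Lig1, Hells, Mcm2, Mcm5, Stmn1, Mcm3 and Prim1, most of which act in DNA synthesis. None of the 11 cDC2a and Notch-linked genes compared was 2-fold apart in both libraries. Within that limit Dtx1 was still 1.60-fold (1.503 to 1.709) and 2.07-fold (1.94 to 2.22) higher in C0, and Cd7 1.34-fold and 1.34-fold. Higher in C0 were Mxd4, which opposes Myc, at 85.4 and 96.6 CPM against 18.2 and 21.2 CPM, and Adgre1 at 95.8 and 117 CPM against 39.4 and 47.5 CPM. Slc12a2, Slfn5, Mmp12, Cd81, Adgrl3 and Scimp had log2 ratios between 1.13 and 1.38. Of the 7 cDC2b and monocyte-linked genes compared, 1 was lower in C0, Lyz2, at 93.8 and 103 CPM in C5.

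Many more genes were lower than higher in C0 against C8. Of 2948 genes, 20 were higher in C0 (0.678%) and 214 were lower (7.26%). Of the 10 maturation genes compared, 6 were lower in C0 and 0 higher, with a median log2 ratio of -1.46 against 0.11 over all genes compared. Ccr7, which guides DCs to lymphatics and T cell zones, was at 13.98 and 17.4 CPM in C0 against 693 and 1122 CPM in C8. Cd83 was at 106 and 97.2 CPM against 1444 and 1393 CPM, and the costimulatory ligand Cd86 at 97.3 and 87.8 CPM against 575 and 458 CPM. Cd40, by contrast, was at 61.5 and 68.5 CPM in C0 and 51.6 and 60.1 CPM in C8. Il1b, the interleukin-1 beta gene, was at 120 and 180.0 CPM in C0 against 3479 and 3937 CPM.

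Early response genes divided between the clusters. Of the 16 immediate early and heat shock genes, 10 were lower in C0 than in C8 and 2 higher, against 7.26% and 0.678% of all genes compared. Atf3 was at 57.6 and 67.6 CPM in C0 against 1285 and 1236 CPM, and Fos at 456 and 434 CPM against 2603 and 2223 CPM. Jun was nearly level, at 1636 and 1627 CPM in C0 and 1985 and 1871 CPM in C8. The 2 higher genes were the inducible heat shock proteins Hspa1a, at 1853 and 1830 CPM against 471 and 681 CPM, and Hspa1b, at 692 and 755 CPM against 192 and 247 CPM. The nuclear receptors Nr4a2 and Nr4a3, both induced by acute stimulation, were among the 12 genes furthest below C8, with log2 ratios of -5.35 and -5.97 in WT. Txnip, an inhibitor of thioredoxin, was higher in C0, at 320.3 and 299 CPM against 75.5 and 87.6 CPM. Heat shock and early response transcripts also respond to tissue handling, and a part of handling in these levels was not tested.

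Between the genotypes, Batf3 itself was the first check. It stood at 180 CPM in WT C0 cells, with a UMI in 2079 of 3176 cells (65.5%, 63.8% to 67.1%). In Batf3-/- it was at 1.65 CPM, from 36 UMIs in 35 of 2961 cells (1.18%, 0.825% to 1.64%), with at most 2 UMIs in a cell. The gene, at chr1:191097847-191108945 in GRCm38, was thus 110-fold lower in the Batf3-/- cells (79.1 to 157). After thinning to 1000 UMIs, 15.2% of WT C0 cells had a Batf3 UMI (13.9% to 16.5%), against 2.60% (0.712% to 6.52%) in the plasmacytoid DCs of C14 and 6.64% (3.84% to 10.6%) in C13 of the same library. Its level was not particular to C0. In WT cells of C1, C2, C3, C5, C7, C8, C10 and C11 it ranged from 87.6 CPM in C3 to 297 CPM in C1, with C5 at 185 CPM.

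Apart from Batf3, few genes of C0 were far apart between the libraries. The study tested the genotypes within clusters and reported Batf3 as the only gene called in those other than C4, C6 and C12. The genes below were counted by size of ratio alone, which is a different criterion. Of 2668 genes with a mean level of at least 50 CPM, 14 were higher in Batf3-/- by a log2 ratio of at least 0.5 (0.525%) and 20 were lower (0.75%). More were higher with a total that left out mitochondrial and ribosomal protein genes, under which 3576 genes were compared. The median log2 ratio over the 2668 genes was 0.01 and the 5th and 95th percentiles were -0.23 and 0.20. With 1 library per genotype, a difference between the sources or pools of mice, the staining or the droplets cannot be told apart from one due to the genotype.

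**Figure D3:**
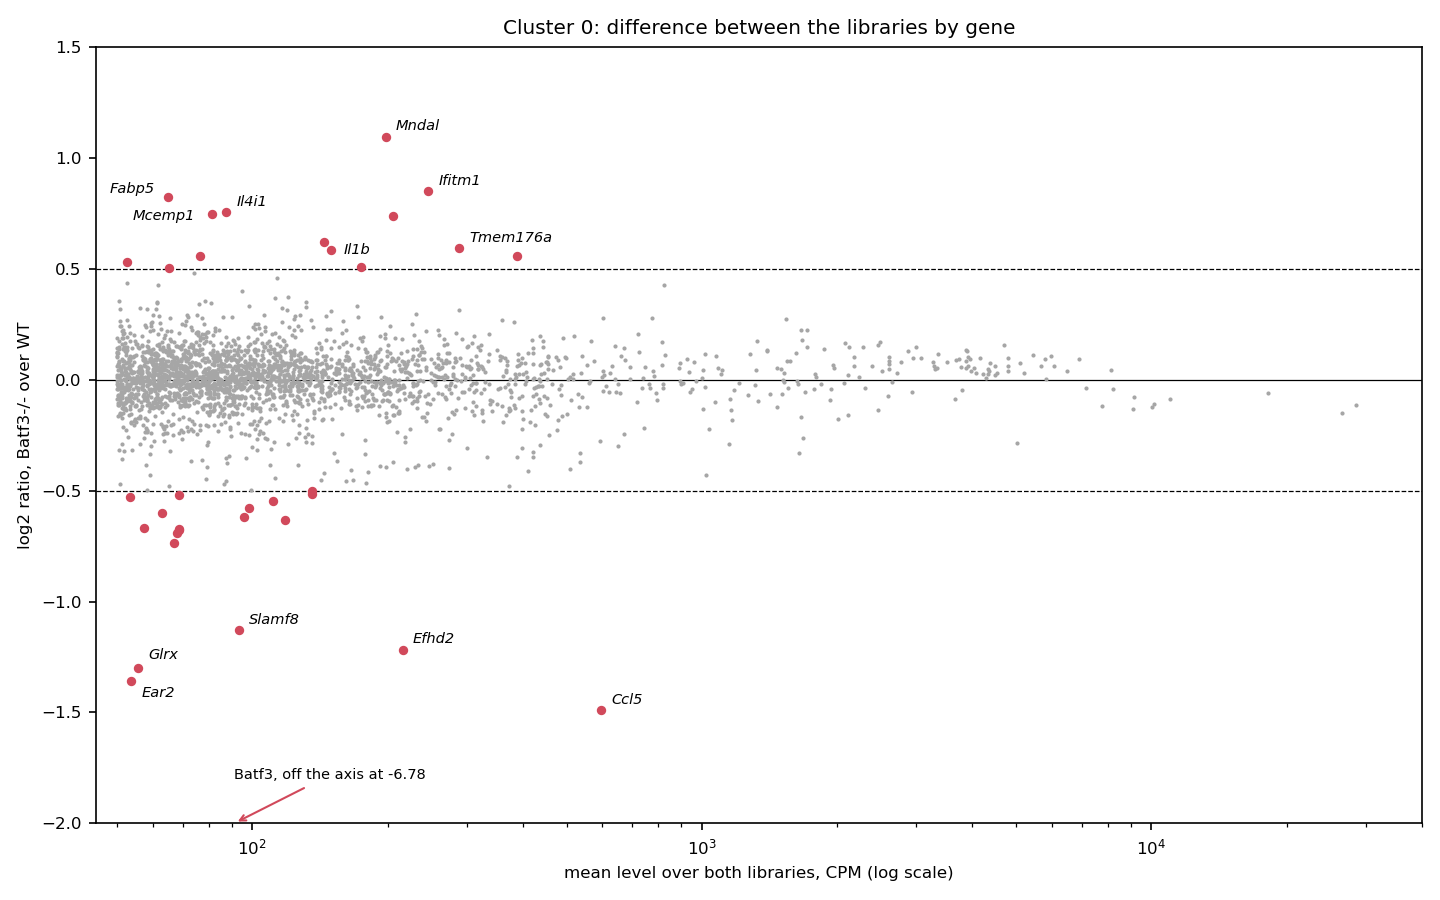
Log2 ratio of Batf3-/- over WT against the mean level (CPM, log axis) for the 2668 genes with at least 50 CPM in C0, 1 point a gene. Red points lie past the dashed lines at 0.5 and -0.5, and Batf3 lies off the axis at -6.78. Most genes lie close to 0, Ccl5 is at -1.49 and Mndal at 1.10.

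The genes lower in Batf3-/- C0 cells were led by Ccl5, a chemokine that attracts T cells, at 879 CPM in WT and 313 CPM in Batf3-/-, a log2 ratio of -1.49 (-1.53 to -1.45). At 1000 UMIs per cell, 47.3% of WT and 22.7% of Batf3-/- C0 cells had a Ccl5 UMI, against 9.74% and 5.94% of the cells of C14. Ear2, an eosinophil-type ribonuclease, was at 77.3 and 30.2 CPM (-1.36, -1.49 to -1.23). Glrx, a glutaredoxin, was at 79.3 and 32.2 CPM (-1.30, -1.43 to -1.17). Efhd2, a calcium-binding protein of the actin cytoskeleton, was at 302 and 130 CPM (-1.22, -1.28 to -1.15), and the surface receptor Slamf8 at 128 and 58.6 CPM (-1.13, -1.22 to -1.03). These 5 were the ones past a log2 ratio of -1 besides Batf3. Fem1c, Prss30, Ctnnd2 and Nfkbiz followed, between -0.73 and -0.67, and the other 10 lay between -0.67 and -0.50 and included Bhlhe40, Havcr2 (TIM-3) and Isg15. Among DCs the study found Havcr2 mainly in cDC1, and a part of free RNA of cDC1 in its C0 level was not tested.

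The genes higher in Batf3-/- C0 cells were led by Mndal, a member of the interferon-inducible Ifi200 family, at 126 CPM in WT and 270 CPM in Batf3-/- (1.10, 1.03 to 1.16). Ifitm1 was at 176 and 317 CPM (0.85, 0.79 to 0.91). Fabp5, a fatty acid binding protein, was at 46.8 and 82.9 CPM (0.82, 0.71 to 0.94), and Il4i1, a secreted amino acid oxidase of mature DCs, at 65.1 and 110 CPM (0.75, 0.66 to 0.85). Il1b was at 120 and 180.0 CPM (0.59, 0.52 to 0.66). Chka, Mcemp1, Anxa2, Tmem176a and Lamp1 made up the 10 named, between 0.56 and 0.75, and Tmem176b, Marcksl1, Cd37 and Arl5c were the other 4. Tmem176a and Tmem176b, a neighbouring pair of membrane proteins, belong to the cDC2b list and stood at 347 and 463 CPM in Batf3-/- C0 cells, still under the 1095 and 1223 CPM of Batf3-/- C2 cells.

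Most of these genes differed in the same direction in other clusters, whose values are given without a test. Efhd2 was lower in Batf3-/- in C2, C5 and C8 as well, with log2 ratios of -0.78, -0.92 and -0.74, and Ear2 at -1.89, -1.11 and -1.10. Ccl5 was lower in C2 (403 and 205 CPM), C3 (251 and 113 CPM) and C5 (390 and 150 CPM), but was nearly level in C8 (1241 and 1211 CPM) and in C10 (304 and 300.045 CPM). It was also nearly level in C13, the cluster of NK and T cells, at 3993 and 4011 CPM. In the plasmacytoid DCs of C14, with 154 and 101 cells, it was at 638 and 56.6 CPM, a log2 ratio of -3.49 (-3.90 to -3.11). By the thinned shares above, only a small share of C14 cells had a Ccl5 UMI. This ratio can therefore rest on few cells, and its interval does not cover the spread between cells. Mndal was higher in all of C2, C3, C5, C7, C8 and C10, between 0.73 and 0.94, and level in C1 at 62.2 and 62.0 CPM.

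A group of the genes higher in Batf3-/- C0 cells was also higher in C5 and C8 and level in C2. Fabp5 had log2 ratios of 0.86 in C5, 1.08 in C8 and 0.14 in C2. For Il4i1 they were 0.97, 0.70 and 0.03, for Mcemp1 0.61, 0.84 and 0.06, for Tmem176a 0.61, 0.76 and 0.01, and for Lamp1 0.51, 0.52 and -0.05. These 5 were picked for this pattern from the 10 genes named as higher, so it is a description. Mndal, Ifitm1, Chka and Anxa2, also among the 10, were at 0.73, 0.36, 0.46 and 0.48 in C2. The pattern was not particular to these clusters. In C13, the cluster of NK and T cells, the ratios in the same order were 1.06, 1.67, 1.21, 0.96 and 0.76. In C7 they were 0.66, 0.97, 0.71, 0.64 and 0.40. In C10 they were 0.03, 0.52, 0.62, 0.30 and 0.64, and in C14 they were mixed, at 0.21, -0.87, 0.92, -0.09 and -0.30. In C1, the cluster where Fabp5 and Il4i1 were most abundant among those compared (2411 and 1193 CPM in WT), they were at 0.22 and 0.10.

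Some of the genotype differences lay near Batf3 on chromosome 1, which was looked at after the values were seen. Of the 34 genes past the limit, 4 were on chromosome 1 (Atf6, Batf3, Mndal and Slamf8, 11.8%), as were 172 of the 2668 compared (6.45%). All 4 lay within 30 Mb of Batf3, as did 47 of the 2668 compared (1.76%). Batf3, the gene knocked out, is itself counted in these numbers and in those that follow for the window. With genes of low level included, 28 of the 179 genes of at least 60 UMIs in that window were past a log2 ratio of 0.5 (15.6%), 16 higher and 12 lower in Batf3-/-, against 580 of all 10342 such genes (5.61%). Ifi204 was at 4.45 CPM in WT and 26.4 CPM in Batf3-/- C0 cells and Ifi211 at 1.47 and 14.2 CPM, while the neighbouring Ifi213 was at 22.0 and 5.99 CPM and Ifi206 at 17.97 and 6.12 CPM. Itln1, an intelectin gene, had 0 UMIs in WT and 176 in Batf3-/-. Genes of the Ifi200 family share sequence, so their counts can be split between copies. A part of the strain origin of this segment in these differences was not tested.

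All gene lists were chosen with earlier results of these data known, so their counts describe and test nothing. Of the chosen lists, the cDC2b and monocyte-linked one had 2 genes past the limit between genotypes in C0. These were Tmem176a and Tmem176b, of 6 compared, both higher in Batf3-/-, against 0.525% of all genes compared, and the median log2 ratio of the 6 was 0.18. The study had already reported both as higher in Batf3-/- cells of C6, a cDC1 cluster. The list summed to 2504 CPM in WT and 3034 CPM in Batf3-/-, of which S100a4, a calcium-binding protein, gave 1393 and 1681 CPM (0.27). Of its 12 members with at least 20 UMIs, 3 were below 0 (3 or 4 under other scalings), Cd209a, Klf4 and Lyz2, against 47.9% of all such genes. None of the 11 cDC2a and Notch-linked genes compared was past the limit (median log2 ratio -0.01, against 0.01 over all genes), and Dtx1 had the most negative ratio among them at -0.40 (-0.45 to -0.34). In the other direction, Ccr6 was higher in Batf3-/-, at 44.7 and 60.6 CPM. Dtx1 was lower in Batf3-/- in C5 (163 and 95.7 CPM), C8 (161 and 105 CPM) and C10 (264 and 167 CPM) too, and level in C2 (19.7 and 19.96 CPM). None of the 16 transcription factors compared was past the limit apart from Batf3. Relb, a subunit of NF-kB, was at 257 and 320 CPM (0.32), Nr4a1 at 207 and 156 CPM (-0.41), and Irf4, which many cDC2 functions need, lay below the 50 CPM limit at 24.7 and 24.6 CPM. Batf, a relative of Batf3 that can stand in for it in some settings, was also below it, at 21.7 and 18.9 CPM.

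In some lists most ratios pointed the same way. Among members with at least 20 UMIs, all 10 MHC class II genes were below 0, with a sum of 48628 CPM in WT and 46092 CPM in Batf3-/-, against 47.9% of all 11626 such genes. H2-Ob was at 239 and 200 CPM (-0.26) and H2-Aa at 8333 and 8098 CPM (-0.04), so the differences were small. In C2, 9 of the 10 were below 0, and in C5 4 of 10. Of 14 interferon-stimulated genes, 11 were below 0 in C0, among them Ifit3 at 60.9 and 33.8 CPM (-0.85), Ifit1 at 46.0 and 28.4 CPM (-0.70) and Isg15 at 160 and 112 CPM (-0.52). Among those above 0 were Ifi204 and Ifi203, both Ifi200 genes of the chromosome 1 window. Of 14 maturation genes, 2 were below 0, while Il4i1 was past the limit and Ccr7 was at 13.98 and 17.4 CPM (0.32). The counts of these 3 lists were the same under each of 3 other scalings. Of the 16 immediate early and heat shock genes, 13 were below 0 (10 to 13 under other scalings) and 0 were past the limit. Dusp1, a phosphatase induced early after stimulation, was at 165 and 123 CPM (-0.42), while Hspa8, a constitutive heat shock protein, was at 1570 and 1776 CPM (0.18).

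Most cDC1 genes had ratios below 0, which is a description. The study had already reported several of them, such as Naaa and Cd8a, as lower in Batf3-/- cells of C6. Of 14 cDC1 genes with at least 20 UMIs, 13 were below 0, against 47.9% of all such genes. Of these, 3 reached the 50 CPM limit and 0 were past a log2 ratio of 0.5. Wdfy4, needed for cross-presentation in cDC1, was at 312 and 236 CPM (-0.40). Naaa was at 40.3 and 22.5 CPM (-0.84), Cd8a at 6.97 and 2.19 CPM and Clec9a at 6.10 and 2.10 CPM. After thinning to 1000 UMIs, Clec9a was seen in 0.441% of WT and 0.169% of Batf3-/- C0 cells, and in 2.07% and 0.685% of the cells of C13, the cluster of NK and T cells. The WT library also held most of the cDC1, and a part of their free RNA in these C0 values was not tested. Cd36 had 44 UMIs in WT and 2 in Batf3-/- C0 cells, a ratio of 22.1 (5.76 to 188).

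Other secreted and surface molecules were described by list. Of 7 cytokine and chemokine genes compared, 1 was higher (Il1b) and 1 lower (Ccl5), against 0.525% and 0.75% of all genes compared. Ltb, the lymphotoxin beta gene, was at 704 and 947 CPM (0.43), and Ccl3 and Ccl4 were at 99.2 and 76.5 CPM and at 143 and 109 CPM. Of 10 C-type lectins with at least 20 UMIs, 1 was below 0 (0 to 3 under other scalings), against 47.9% of all such genes, with Clec4n at 7.79 and 16.2 CPM. In C2, 8 of 10 were below 0, in C5 2 of 10 and in C8 4 of 10. Csf1r, the receptor for colony-stimulating factor 1, was at 14.1 and 29.2 CPM (1.05, 0.85 to 1.25), below the 50 CPM needed to be counted. Of 18 pattern recognition genes, 3 were compared and 0 were past the limit. Itgax, the gene of CD11c, was at 286 and 220 CPM (-0.38, -0.44 to -0.33), and in C2 at 290 and 211 CPM.

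Surface protein gave a readout that the clustering had not used. The deposited tag rows carry no names here, so a row was named after an antibody of the panel only where it and the gene of that antigen had their highest correlation with each other in both libraries. Over all cells this named CD4 and CD8A, and after subtraction of cluster means, a choice made after the data were seen, also CD11B, CD11c and CD24. The correlations behind the added names were low in WT and Batf3-/-. They were 0.155 and 0.187 for CD11B, 0.137 and 0.122 for CD11c, and 0.254 and 0.253 for CD24, and these names rest on them alone. The remaining 6 of 11 rows are not described. On raw counts, the median C0 cell had 38 CD4 tags in WT (quartiles 30 to 48) and 39 in Batf3-/- (31 to 48), second to the plasmacytoid DCs of C14 (79 and 65) among clusters in both libraries. As a share of all tags of the cell, C0 had rank 4 of 19 and rank 3 of 15. Its neighbours in the order, such as C9 at 37 and 37, lay within the quartiles of C0.

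The CD11B tag of C0 had medians of 51 in WT (42 to 62) and 45 in Batf3-/- (35 to 57), rank 4 in both libraries and below C2 (76 and 65). In Batf3-/- it was tied with C1, C6 and C10, and as a share of all tags C0 had rank 5 in both libraries. The WT cDC1 of C4, which the study used as the background level for CD11B and CD4, had medians of 34 for CD11B and 27 for CD4. CD8A tags were at 41 in C0 of both libraries, against 122 in C4. CD24 tags were at 34 and 31, against 131 in C4. For CD8A and CD24 the study took C0 itself as the background level, so these counts are not read as antigen on C0 cells. All tag counts here include unspecific binding, since no threshold was applied. CD11c tags were at 89 in WT (75 to 108) and 62 in Batf3-/- (48 to 77), the tag of these 5 that was furthest apart between genotypes. It was also lower in Batf3-/- in C2 (65 and 50), C5 (94 and 65) and C8 (76 and 56), but not in C13 (34 and 36.5). As a share of all tags of the cell it was at 17.6% in WT and 13.3% in Batf3-/- C0 cells, in the same direction. On the deposited normalised scale the C0 medians were 0.715 and 0.734, but there each raw count of a tag is divided by 1 value per library, 85.2 for CD11c in WT and 57.2 in Batf3-/-, so that scale does not compare levels between the libraries. The cells had been stained for CD11c before the sort, and every CD11c antibody the study lists is of the same clone as the tag. A part of the antibody staining in this gap was not tested.

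**Figure D4:**
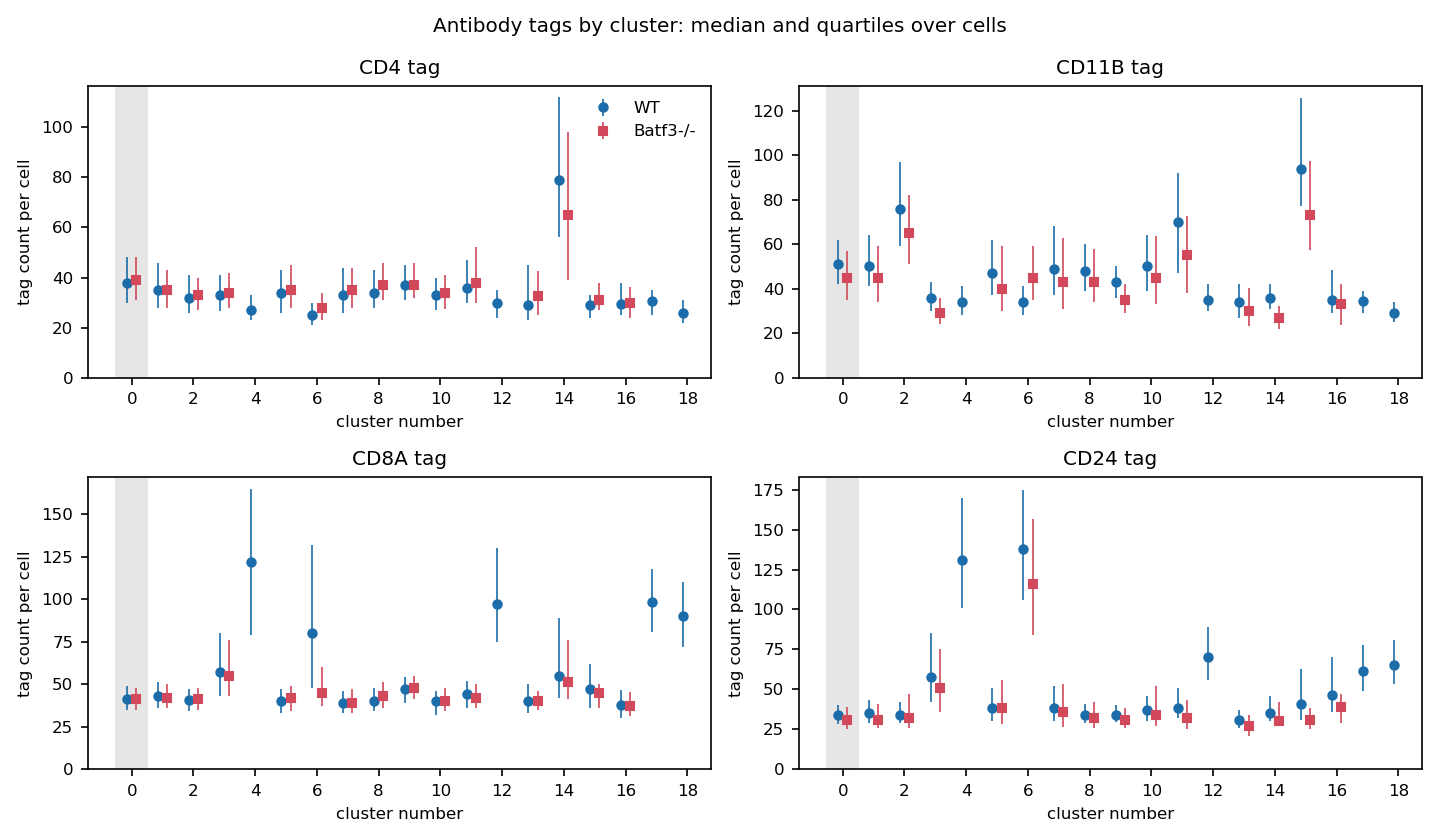
Tag counts per cell for CD4, CD11B, CD8A and CD24 in each cluster with at least 50 cells (median with quartiles over cells, blue for WT and red for Batf3-/-, C0 shaded). C0 is second to C14 for CD4 (38 and 39), below C2 for CD11B (51 and 45), and far below the WT cDC1 cluster C4 for CD8A and CD24.

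The tags also divided C0 within itself. Cells of each library were ranked by the deposited normalised tag, and the top quartile group (794 WT and 741 Batf3-/- cells) was set against the bottom quartile group (794 and 740 cells). For the CD4 tag, 12 of 2658 genes were higher in the top quartile group by a log2 ratio of at least 0.5 in both libraries (0.451%) and 3 were lower (0.113%). Cd4 itself went from 40.7 to 134 CPM in WT and from 26.6 to 122 CPM in Batf3-/-, which is a description, since this transcript named the tag. Across C0 cells its correlation with the tag was 0.286 and 0.292. For the other named tags and their genes it was lower, at 0.127 and 0.182 for CD11B and 0.102 and 0.120 for CD24. It was 0.064 and 0.097 for CD11c and 0.067 and 0.020 for CD8A.

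The cells with more CD4 tag had more Apoe, the lipid carrier apolipoprotein E, which went from 162 to 259 CPM in WT and from 138 to 273 CPM in Batf3-/-. Il1b went from 90.6 to 164 CPM and from 113 to 240 CPM, and Cd209a, the gene of the lectin DC-SIGN, from 84.8 to 145 CPM and from 60.1 to 108 CPM. Hap1, Cd81, Skint3 and Ccnd2 were also higher in both libraries. In the other direction, Ifitm1 went from 229 to 99.2 CPM and from 464 to 206 CPM, the intermediate filament gene Vim from 178 to 91.8 CPM and from 205 to 101 CPM, and Cd7 from 495 to 311 CPM and from 454 to 281 CPM. Ifitm1, Vim and Cd7 were the 3 genes lower in the top quartile group by the limit, so 1 of the markers that define C0 was past it against the CD4 tag. Dtx1 also ran against the tag, short of the limit in WT. It was at 287 and 224 CPM in the bottom and top quartile group of WT and at 231 and 154 CPM in Batf3-/-. Sirpa ran with the tag, at 193 and 227 CPM and at 219 and 272 CPM.

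For the CD11B tag, 14 of 2656 genes were higher in the top quartile group (0.527%) and 10 lower (0.377%). More genes were lower when cells were ranked by the tag as a share of all tags. Itgam, the gene of CD11B, went from 34.0 to 63.4 CPM in WT and from 36.9 to 74.7 CPM in Batf3-/-, again a description. Psap, the precursor of the saposins, went from 314 to 591 CPM and from 251 to 650 CPM, and Cd209a from 75.7 to 156 CPM and from 45.5 to 103 CPM. Skint3, Ear2, Glrx, Atf3 and Il1b were higher too. Ear2 and Glrx, both lower in Batf3-/- C0 cells as a whole, were thus higher in the cells with most CD11B than in those with least in each library. Lower were Ryr3, from 67.4 to 29.7 CPM and from 93.2 to 29.6 CPM, and Sox4, the transcription factor after which the study named C3, from 71.2 to 39.5 CPM and from 89.6 to 35.6 CPM. Vim was lower here as well, from 180 to 102 CPM and from 216 to 98.3 CPM.

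The CD4 and CD11B orders overlapped in part. Of the cells in the top CD4 quartile group, 38.0% in WT and 39.8% in Batf3-/- were also in the top CD11B quartile group, against 25% of all C0 cells. The top CD24 quartile group held 35.5% and 32.7% of the same cells. Total tag counts differed too, with WT medians of 558 in the top and 471 in the bottom CD4 quartile group. Their part in the overlap was not tested. Depth moved with the tags: the median cell had 7005 UMIs in the top and 6513 in the bottom CD4 quartile group of WT, and 7257 and 6111 UMIs for CD11B, and its part in these differences was not tested. Ranked by the tag as a share of all tags of a cell, the log2 ratios for the CD4 tag were -1.36 and -0.79 for Ifitm1 and -0.76 and -0.67 for Cd7, in the same direction.

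**Figure D5:**
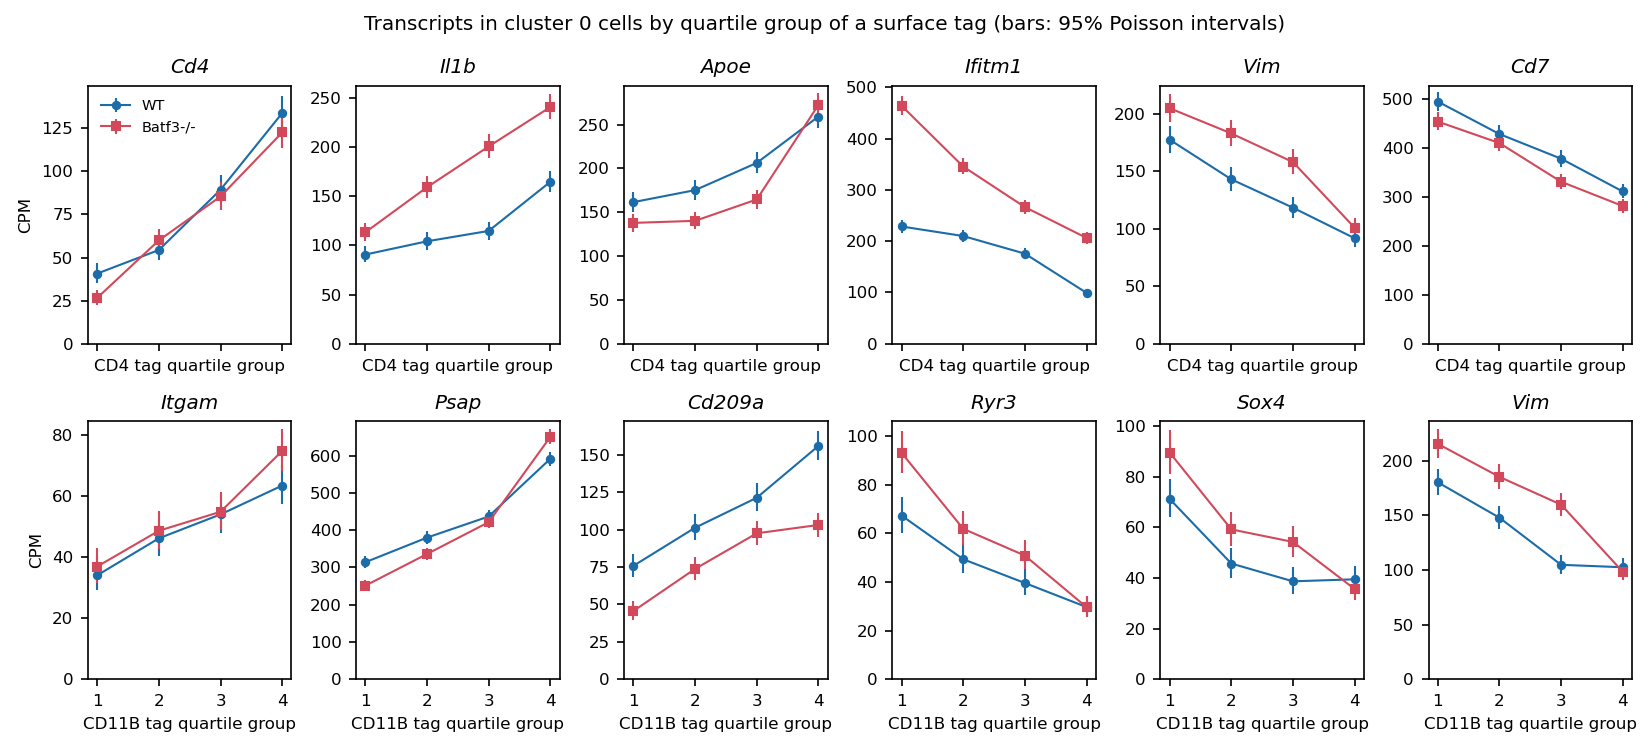
Levels (CPM, linear axis from 0, bars are 95% Poisson intervals) of 6 transcripts in quartile groups of C0 cells ranked by the CD4 tag (top row) and of 6 ranked by the CD11B tag (bottom row), 1 lowest, blue for WT and red for Batf3-/-. Cd4, Il1b and Apoe are higher and Ifitm1, Vim and Cd7 lower in the top CD4 quartile group than in the bottom one in both libraries.

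The other tags divided C0 less. For CD8A, 0 of 2668 genes were past the limit in either direction (0%). For CD11c, 0 of 2671 were higher (0%) and 1 was lower (0.0374%), the unnamed transcript F630028O10Rik. For CD24, 1 of 2665 genes was higher and 1 lower (0.0375% each). A part of unspecific binding in the CD24 order was not tested. Sox4 was the higher one, from 25.7 to 90.8 CPM in WT and from 38.7 to 87.1 CPM in Batf3-/-, and Ear2 the lower, from 97.9 to 59.8 CPM and from 32.2 to 18.8 CPM. The CD24 and CD11B orders, in which Sox4 ran in opposite directions, were separate rankings of the same cells, and 31.6% and 41.0% of the top CD11B quartile group were also in the top CD24 quartile group.

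The spread between C0 cells was measured gene by gene in the 2651 WT and 2514 Batf3-/- cells with at least 5000 UMIs, which left out 525 and 447 cells. Over 2668 genes, after thinning to 5000 UMIs, the variance over cells divided by the mean had a median of 1.06 in both libraries, where counting noise alone gives a value near 1. The highest values belonged to Malat1, an abundant nuclear noncoding RNA, at 29.2 in WT and 28.9 in Batf3-/-, and to the transcript Gm42418 at 14.3 and 14.2. Ccl4, a chemokine induced on activation, stood at 9.11 in WT and 7.88 in Batf3-/-, with 82.3% and 85.0% of cells at 0 UMIs and up to 44 and 31 UMIs in a cell. Ifitm1 was at 7.18 and 8.62, with 75.3% and 62.4% of cells at 0, so a minority of cells carried most of it. The abundant transcripts Cd74 (6.91 and 7.29), mt-Co3 (6.47 and 6.32), Tmsb4x (6.22 and 6.77) and mt-Atp6 (5.68 and 5.85) came before Ccl5 in both libraries. Ccl5 was at 5.49 and 5.31, and its cells at 0 made up 19.0% in WT and 45.6% in Batf3-/-. Sox4 was at 4.42 and 4.02, with 89.4% and 86.8% of cells at 0.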

How the data were processed

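Single-cell transcript and antibody tag libraries of 1 WT and 1 Batf3-/- pool were analysed from the deposited tables. The authors ran bcl2fastq 2.2.0 and Cell Ranger on GRCm38, aggregated the libraries with sequencing depth evened, and filtered and clustered the cells in Seurat 3.0.5. The deposited values are UMI counts per gene, per tag and per cell, and the deposited normalised tags are on a natural log scale (centred log ratio). The deposited cell annotation holds mitochondrial and ribosomal shares as a fraction, cell cycle phases from the authors' scores (the S and G2M score of each cell), and cluster numbers. There were 0 columns of other series.

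UMI counts were summed per cluster and library (Python 3.11.15, numpy 2.4.6, scipy 1.17.1, pandas 2.3.3) and given as CPM with exact Poisson intervals. Ratios have exact binomial intervals and shares Clopper-Pearson intervals, all at 95%. Genes needed a mean of 50 CPM and 20 UMIs. With 1 library per genotype no p-value was computed. A gene was counted past a log2 ratio of 0.5 between genotypes or tag quartile groups and of 1 between clusters, in both libraries for quartile groups and clusters. Up to 10 genes per direction between genotypes, 12 against each cluster and 8 per tag, ranked by ratio, and the gene lists were named. The ratios and their intervals were checked on simulated Poisson counts, which lack the extra spread between cells seen in the data. Thinning was checked on cells of the data. Gene positions came from GENCODE annotation of GRCm38. The doublet caller Scrublet (scanpy 1.11.5) marked 438 WT cells and 1 Batf3-/- cell, so it had not worked, and no cells were removed; leaving out the top 5% of scores was an alternative. C0 held 21815080 and 21877893 UMIs. Alternatives changed the scaling, the CPM minimum, the cell cycle phase, the depth and the tag ranking. The members and gene lists were chosen with earlier results of these data known. The listed genes Clec7a, Ifi30, Trac, Trbc1, Trbc2, Ighm and Ighd were not analysed here. A few genes that entered these counts and sums are not reported here by name.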

Additional observations from a re-analysis of the deposited data

Results flagged for a closer look

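Il1b moved in opposite directions in C0 and C10. In C0 it was at 120 CPM in WT and 180.0 CPM in Batf3-/-, a log2 ratio of 0.59 (0.52 to 0.66), and in C10 it was at 158 and 105 CPM, a log2 ratio of -0.58 (-0.79 to -0.38). The single library of each genotype showed one direction in C0 and the other in C10, and the difference was not tested. Among the other clusters compared, the ratio was above 0 in C3 (0.93), C13 (0.43), C7 (0.31), C5 (0.30), C14 (0.25) and C8 (0.18), and below 0 in C1 (-0.24), C2 (-0.13) and C11 (-0.36). In C14 its interval covered 0 (-0.31 to 0.81).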

How the results depend on the processing

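No paired analysis was possible because each genotype was 1 library, and no replicate could be left out. The share of C0 was 36.7% in WT and 26.1% in Batf3-/- without the cDC1 clusters, 32.4% and 31.1% among G1 cells, and 27.3% and 25.3% without the top doublet scores. With a minimum of 20 CPM, 38 genes were higher and 46 lower in Batf3-/-, 157 and 150 in C0 against C2, 48 and 249 against C5, and 46 higher against C8. With 100 CPM the counts were 8 and 6, 40 and 47, 10 and 61, and 9. These counts follow the number of genes compared, which between genotypes was 5227 at 20 CPM and 1307 at 100 CPM, against 2668 at 50 CPM. With a total without mitochondrial and ribosomal protein genes, 24 of 3576 genes compared were higher in Batf3-/-, among them all 14 reported. Under this total 32 and 38 genes were higher in C0 than in C5 and C8. Without the top doublet scores 31 were higher than in C8, and the cause was not tested. With tags as a share of all tags, 18 genes were lower in the top CD11B quartile group, 3 for CD11c and 2 for CD24. The tag share, the doublet score, the chromosome 1 and the shared barcode alternatives were chosen after seeing the data. The other 59 counts and shares stayed within 1.5 times of, or within counting error of, those reported, and none of the ratios of the 20 genes named for their ratio between genotypes changed sign. Of the 15 cDC2a and Notch-linked genes with at least 20 UMIs, 9 were below 0 in Batf3-/- over WT, against 7 without mitochondrial and ribosomal protein genes and 6 with each cell weighted equally. Ctnnd2 fell short of the limit when cells were thinned to 2000 UMIs (-0.42). Of the 14 higher and 20 lower genes, 12 and 15 were shared with the thinned data. Leaving out Scrublet calls was not run, since it marked 1 Batf3-/- cell. With 1 library per genotype, the spread between mice is unknown.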
